A study of Arabidopsis thaliana with 12 samples.

Results

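The plastid-encoded genes are the genes carried on the chloroplast's own chromosome, taken here as every gene whose locus number begins with ATCG. There were 88 of them among 24912 genes listed in any of 4 deposited tables, all taken as protein-coding by gene name. The table of root with PS-NH2 held 87, since the short copy of ycf1 had no entry there. By role, 15 members encode photosystem II subunits, 7 photosystem I subunits or assembly factors, 6 the cytochrome b6f complex, 6 ATP synthase and 12 the NDH complex. The large subunit of Rubisco is encoded by 1 member, the plastid RNA polymerase by 4, the small ribosomal subunit by 15 and the large by 11, and 11 have other roles. RNA came from leaf and root of wild-type Arabidopsis thaliana Col seedlings aged 10 days, grown on MS medium. Each tissue had an untreated control, a group with PS-SO3H polystyrene nanoplastics at 50 ug/ml and a group with PS-NH2 polystyrene nanoplastics at 50 ug/ml, which gave 6 groups of 2 libraries. The labels do not say that the libraries of a group came from separate cultures, so the p-values measure only the spread between these libraries, which may be technical.

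Chloroplasts keep a small circular genome that encodes core subunits of the photosynthetic complexes, part of the plastid ribosome and the plastid's own bacterial-type RNA polymerase. Most photosynthesis genes are read by that polymerase, which is steered to promoters by nuclear-encoded sigma factors, while a few housekeeping genes such as rpoB, accD, ycf1 and ycf2 are read mainly by a phage-type polymerase imported from the cytosol. Transcription units usually span several genes, and their long RNAs are cut, spliced, edited and trimmed afterwards, so genes of 1 unit can differ in RNA level. A large inverted repeat holds some genes as a pair of copies. Root plastids carry the same genome and are mostly colourless.

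Each deposited table sets 1 particle against control in 1 tissue and gives 1 fitted level per group. Levels are read numbers scaled by size factors. They are divided by gene length (per kb) where genes are ranked by level, whereas shares of a summed level are not corrected for length. Log2 fold changes are treated over control, as in the authors' deposited tables, and the ± value after one is its standard error (SE), recovered from the authors' p-value and covering the 2 libraries of each group. A member counts as called higher or lower at an adjusted p of the authors below 0.05. The 7 pairs of repeat copies had equal values in every table, so the calls of rpl2, rpl23, ndhB, rps7, rps12, ycf2 and ycf15 stand for both copies together. Summed levels and the shares drawn from them include both copies of each pair. Whether reads of a pair were counted for both copies or split is not given in the sources used here. The 2 control levels of a tissue, fitted once per table, were compared on the log2 scale after the median gap of all genes was subtracted. Over members with a mean level of at least 10, they then differed by a median of 0.01 in leaf and 0.03 in root. The largest gaps left after that subtraction were 0.13 for psbN in leaf and 0.23 for psaA in root.

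In untreated leaf, a few members made up most of the plastid RNA that was read. The atpB gene, which encodes the catalytic beta subunit of ATP synthase, had a level of 47555 and held 37.9% of the summed level of all members. Its neighbour atpE, which encodes the epsilon subunit, had the highest level per kb at 37453, ahead of atpB at 31767. Next came rpl32, a large ribosomal subunit gene, at 25284 per kb and psbM, a small photosystem II subunit, at 22930 per kb. The order then continued with rpl2 at 9633, ndhK at 7958, ndhJ at 5677, rps19 at 5367 and psbD at 4839 per kb. The level carries no spread over libraries, so neighbours in this order were not tested against each other. By contrast psbA, which encodes the D1 protein of photosystem II, stood at rank 37 with 364 per kb, and rbcL, the Rubisco large subunit, at rank 44 with 191 per kb. The labels name random primers for the first cDNA strand, and whether RNA was selected by poly(A) tail or depleted of ribosomal RNA is not given in the sources used here.

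The psbA promoter is shown because it carries the bacterial-type box TTGACA that the plastid-encoded polymerase reads, here in capitals. The sequence is the reference of RefSeq assembly TAIR10.1, from the minus strand of the plastid chromosome, Pltd:1530-1559, written 5′ to 3′.
psbA promoter core: TTGACAtggctatataagtcatgttatact
TTGACA occurred on either strand in 12 of 78 windows (15.4%) that run from 250 bases before to 50 bases after the start codon, with 1 copy of each repeat pair. A match describes letters and is not evidence of binding.

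Plastid RNA was far lower in untreated root. The median member had a log2 ratio of root over leaf of -3.06, and 87 of 88 members were higher in leaf. Over all genes the median ratio was 0.53, and it was 0.44 over 105 mitochondrion-encoded genes. The tables were normalized separately by tissue, so these ratios are descriptions without a test. Nuclear-encoded green tissue markers, 29 genes of the photosystems, Rubisco, cytochrome b6f and ATP synthase, had a median ratio of -5.60, and all 29 were higher in leaf. Root markers (CASP1 to CASP5, EXPA7, EXPA18 and COBL9) had a median of 6.63, and 0 of 8 were higher in leaf, so both tissues carried the markers of their labels. In bulk tissue, fewer plastid-rich cells and less RNA per cell cannot be told apart.

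The fall from leaf to root was uneven over roles. It was steepest for ATP synthase (median log2 ratio -4.01) and photosystem II (-4.00), less steep for the small ribosomal subunit (-2.35) and the plastid RNA polymerase (-2.43), and smallest for NDH genes (-2.13). The NDH genes spanned the widest range. The levels of ndhJ (2708 in leaf and 22.4 in root) and ndhK (5395 and 46.7) differed by 121-fold and 116-fold. By contrast ndhH (182 and 113) and ndhA (106 and 58.0) differed by 1.62-fold and 1.83-fold. NDH forms a ferredoxin-dependent complex of cyclic electron flow around photosystem I, and these 4 genes lie in 2 transcription units. The levels of rps15, a small ribosomal subunit gene, were 74.5 in leaf and 57.2 in root. The highest level per kb in root belonged to rpl16 at 1919, followed by rpl32 at 1499, atpE at 1374 and atpB at 1215. The gene ycf1, whose product sits in the inner envelope protein import machinery, held 17.2% of the plastid sum in root and 2.99% in leaf. These shares are not divided by gene length. Per kb, ycf1 had 344 in root (rank 18) and 701 in leaf (rank 31).

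**Figure D1:**
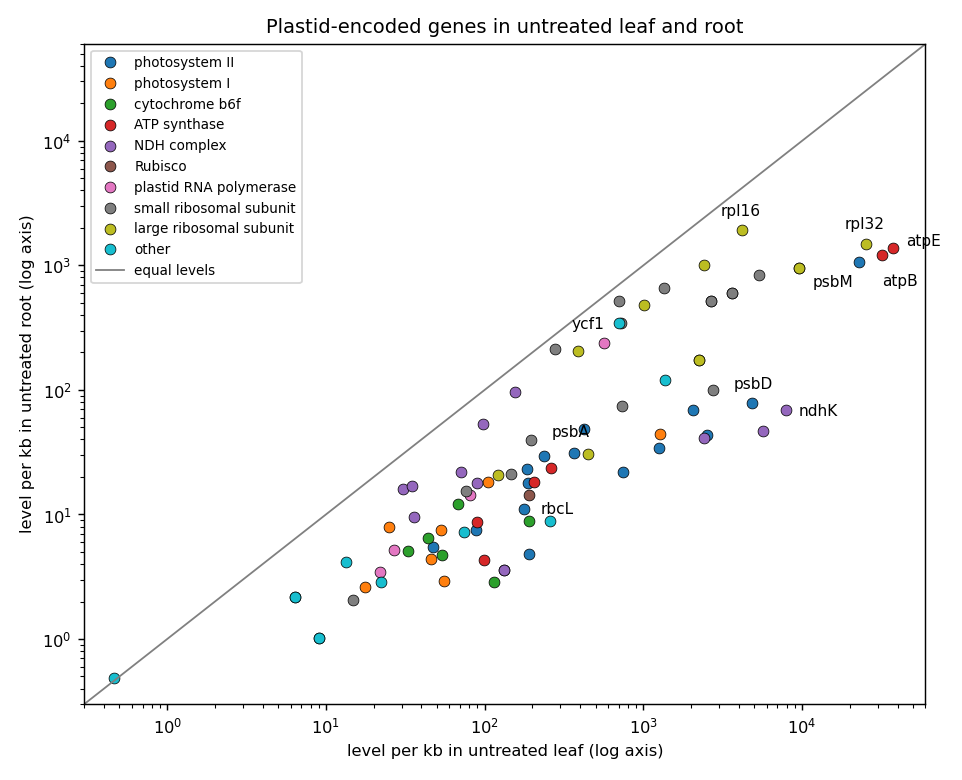
Level per kb of each plastid-encoded gene in untreated leaf (x, log axis) and untreated root (y, log axis) from the PS-SO3H tables, coloured by role, with a line of equal levels. All points but 1, the short ycf1 copy, lie below the line, and rpl16 and ycf1 lie much closer to it than psbD and ndhK.

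Calls among plastid members were most numerous in leaf with PS-NH2, the amino particles. There, 21 of 88 members rose and 2 fell in the authors' deposited table, against 3.79% of all genes called higher and 7.4% called lower. Counted with 1 copy of each repeat pair, 20 rose and 1 fell. The median log2 fold change was 0.33, with 66 members above 0, beside a median near 0 over all genes. Mean levels were at least 10 in 79 members. At an unadjusted p below 0.05 the counts were 31 higher (35.2%) and 4 lower (4.55%), beside 7.77% and 11.7% of all genes. With every gene's fold change taken relative to the median member of level at least 10 (0.37), 12 members were called higher and 9 lower. That shift was taken from the members themselves and lowered the value of every gene. The shares of all genes called after it were not counted, so these counts are not read as a result about the members. Nuclear green markers had a median of 0.02, with values from -0.89 (PSAD-2) to 0.34. Of 29, 1 was called higher and 4 lower, which is 17.2% called beside 11.2% of all genes, and their share of the summed level was 7.57% in control and 8.12% with PS-NH2. The part of these values in the plastid result was not tested.

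**Figure D2:**
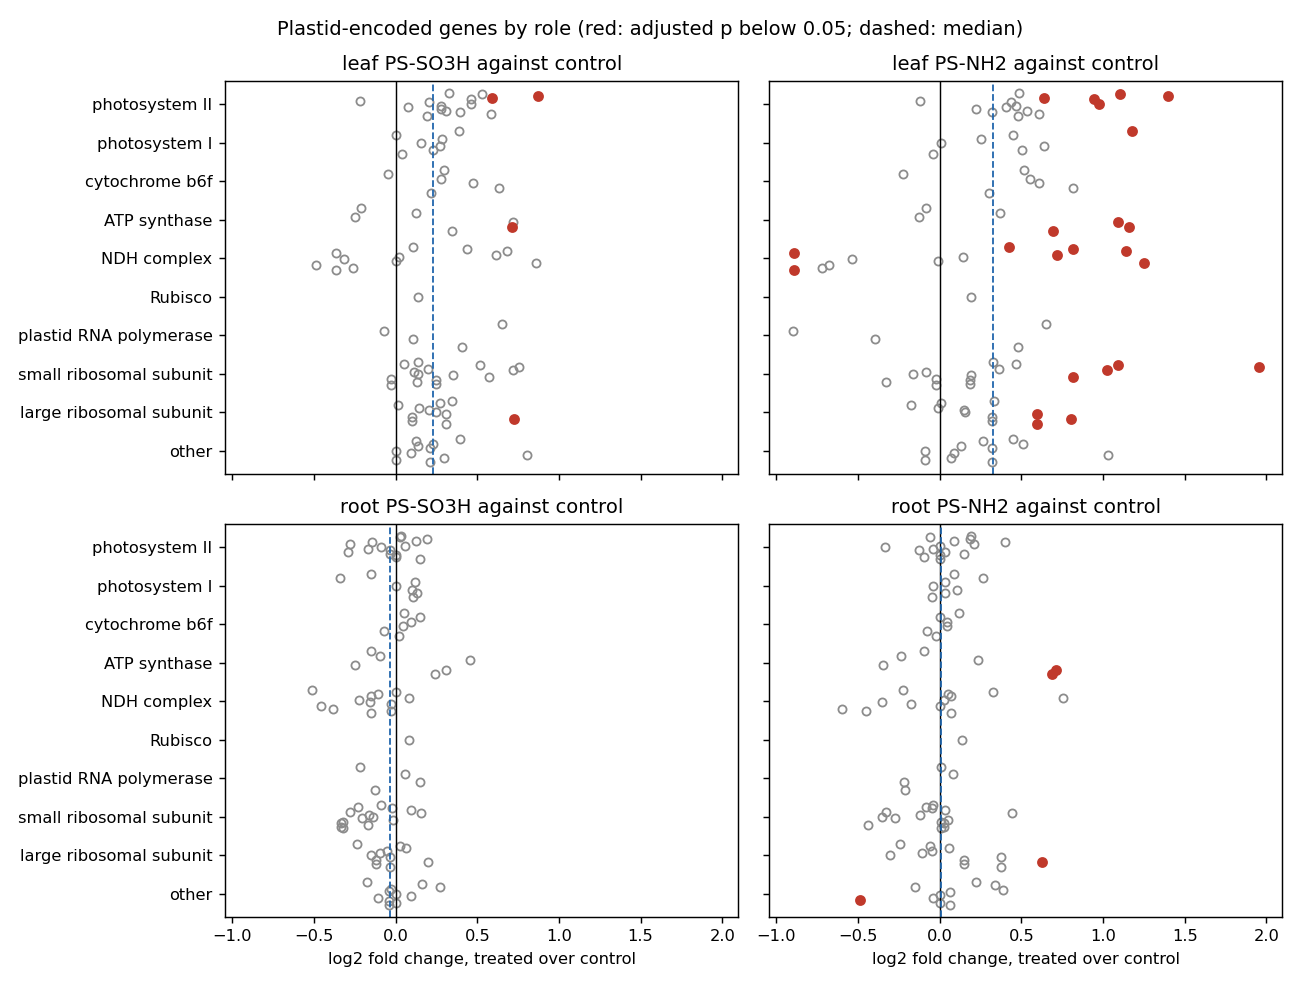
Log2 fold change of each plastid-encoded gene by role in the 4 comparisons with control, with red points at an adjusted p below 0.05 and a dashed line at the members' median. Red points are most frequent in leaf with PS-NH2, where the median was 0.33, and absent in root with PS-SO3H, where it was -0.04.

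Among photosystem II genes, 5 of 15 rose in leaf with PS-NH2, 0 fell, and the median was 0.49. The small subunit gene psbI had a level of 225 in control and 593 with PS-NH2 and rose by 1.40 ± 0.18 (log2, adjusted p = 2.09e-12). Its neighbour psbK went from 231 to 497, a rise of 1.10 ± 0.20 (adjusted p = 2.1e-06). The psbD gene, which encodes the D2 reaction centre protein, had 4818 in control and 9285 with PS-NH2 and rose by 0.95 ± 0.16 (adjusted p = 2.65e-07). Both psbJ (0.98 ± 0.34, adjusted p = 0.0398) and psbM (0.64 ± 0.13, adjusted p = 5e-05) encode small subunits that also rose. The genes of the large core proteins psbA and psbB, for D1 and the antenna protein CP47, had values of 0.49 ± 0.18 (adjusted p = 0.0634) and 0.53 ± 0.21 (adjusted p = 0.0887). For psbC, which encodes the antenna protein CP43, control and treated levels were 3549 and 3269, a value of -0.12 ± 0.16 with an interval from -0.44 to 0.20.

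The contrast between psbD and psbC is of interest because their coding sequences share 53 bases, read in different frames. The shared stretch is printed from RefSeq TAIR10.1, plus strand, Pltd:33720-33772, with the annotated psbC start codon and the psbD stop codon in capitals.
psbD and psbC shared bases: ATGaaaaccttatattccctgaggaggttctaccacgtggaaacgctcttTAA
Reads from that stretch cannot be assigned to 1 of the pair by sequence, and how they were counted is not given in the sources used here.

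Photosystem I had 1 of 7 members called. The reaction centre gene psaB went from 122 to 276 and rose by 1.18 ± 0.26 (adjusted p = 0.000173). Its partner psaA had 120 in control and 163 with PS-NH2, a value of 0.45 ± 0.30 (adjusted p = 0.483). The assembly factor genes ycf3 and ycf4 had values of 0.25 ± 0.43 and 0.64 ± 0.56, and psaJ, a small subunit, 0.50 ± 0.25, none of them called. Of the 6 cytochrome b6f genes, which link the photosystems, 0 were called by the authors' DESeq2 test at the adjusted threshold, with a median of 0.53. At an unadjusted p below 0.05, 1 was higher (16.7%), beside 7.77% of all genes. Their values ran from -0.23 ± 0.26 in petA, the cytochrome f gene, to 0.81 ± 0.41 in petB, the cytochrome b6 gene. The large subunit of the carbon-fixing enzyme Rubisco, rbcL, had 273 in control and 311 with PS-NH2, a value of 0.19 ± 0.20 with an interval from -0.20 to 0.58.

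ATP synthase genes gave 3 calls among 6 members, all higher. The atpE gene had a level of 14698 in control and 32844 with PS-NH2 and rose by 1.16 ± 0.13 (adjusted p = 8.45e-16). Its neighbour atpB had 47106 and 76173 and rose by 0.69 ± 0.13 (adjusted p = 6.97e-06). The third, atpI, encodes a membrane subunit of the proton channel and went from 191 to 407, a rise of 1.09 ± 0.22 (adjusted p = 1.79e-05). Other subunits of the same complex were not called, with -0.08 ± 0.27 for atpA, the alpha subunit, -0.12 ± 0.40 for atpH, the ring subunit, and 0.37 ± 0.37 for atpF, the peripheral stalk. In chloroplasts atpB and atpE overlap by 4 bases, where the end of the first serves as the start of the second. The junction is printed because these genes together held 50.0% of the plastid sum in untreated leaf and 54.6% with PS-NH2. It is taken from RefSeq TAIR10.1, minus strand, Pltd:52645-52678, with the 4 shared bases in capitals.
atpB and atpE junction: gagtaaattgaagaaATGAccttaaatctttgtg

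Calls among NDH genes went up and down. Of 12 members in leaf with PS-NH2, 5 rose, both copies of ndhB fell, and the median was 0.07. The adjoining genes ndhC (816 to 1803), ndhK (5331 to 9401) and ndhJ (2686 to 3597) rose by 1.14 ± 0.14, 0.82 ± 0.13 and 0.42 ± 0.13 (adjusted p = 3.16e-14, 1.89e-08 and 0.0117). The others that rose were ndhI, from 34.6 to 82.5 (1.25 ± 0.40, adjusted p = 0.0209), and ndhF, from 196 to 322 (0.72 ± 0.21, adjusted p = 0.00974). Both encode core subunits, ndhI one that carries iron-sulfur clusters and ndhF a membrane subunit. The membrane subunit gene ndhB fell from 152 to 82.0, by 0.89 ± 0.29 on the log2 scale (adjusted p = 0.0256), and was the only distinct member called lower in leaf with PS-NH2. Not called were ndhH (180 and 109, -0.72 ± 0.33, adjusted p = 0.177), ndhA (106 and 66.1, -0.68 ± 0.36, adjusted p = 0.282) and ndhE (-0.54 ± 0.57).

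Genes for the plastid's own RNA polymerase gave 0 calls among 4 members in leaf with PS-NH2 by the authors' DESeq2 test. At an unadjusted p below 0.05, 2 were higher and 1 lower, beside 7.77% and 11.7% of all genes. The rpoB and rpoC1 genes, for the beta and beta' subunits of the polymerase, had values of -0.39 ± 0.25 (254 and 193, adjusted p = 0.429) and -0.90 ± 0.44 (52.3 and 28.0, adjusted p = 0.218). The rest of the enzyme had positive values, 0.65 ± 0.30 for rpoC2 and 0.48 ± 0.23 for rpoA (530 and 738, adjusted p = 0.21). Of the 8 members known to be read mainly by the phage-type polymerase (rpoB, rpoC1, rpoC2, accD and the copies of ycf1 and ycf2), 0 were called in the same comparison. At an unadjusted p below 0.05, 1 was higher and 1 lower (12.5% each), near those shares of all genes, and their median was 0.18. Among them accD, for a subunit of the fatty acid synthesis enzyme acetyl-CoA carboxylase, had 0.26 ± 0.50, and ycf1 had levels of 3636 and 3818, a value of 0.07 ± 0.16.

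Ribosomal protein genes supplied 7 of the calls, all higher. For the small subunit, 4 of 15 rose, with a median of 0.19. The largest log2 fold change of any member belonged to rps14, which had a level of 784 in control and 3042 with PS-NH2 and rose by 1.96 ± 0.40 (adjusted p = 2.97e-05). In the same direction rps2 (52.8 to 113), rps18 (219 to 446) and rps19 (1473 to 2589) rose by 1.09 ± 0.33, 1.03 ± 0.21 and 0.81 ± 0.14 (adjusted p = 0.0123, 2.12e-05 and 1.67e-07). For the large subunit, 3 of 11 rose, namely rpl32 (3955 to 6906, 0.80 ± 0.11, adjusted p = 1.3e-10) and both copies of rpl2 (7865 to 11877, 0.59 ± 0.13, adjusted p = 0.000163). At similar levels rps7 (1234 and 1214) and rps12 (921 and 1049) had values of -0.02 ± 0.13 and 0.19 ± 0.16, the first with an interval from -0.28 to 0.24. Of the 11 members with other roles, 0 were called by the authors' DESeq2 test. At an unadjusted p below 0.05, 2 of these 11 were higher (18.2%), beside 7.77% of all genes. Among them were the protease gene clpP (0.13 ± 0.15), the splicing maturase matK (0.45 ± 0.28), the envelope protein cemA (0.51 ± 0.23) and ccsA, needed to attach haem to cytochromes (1.03 ± 0.47, adjusted p = 0.168).

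Neighbours in 1 transcription unit often had different values. Along psaA, psaB and rps14 the log2 fold changes in leaf with PS-NH2 were 0.45, 1.18 and 1.96, so the value grew from the first gene to the last. Along ndhC, ndhK and ndhJ they were 1.14, 0.82 and 0.42, the opposite order. In the unit that starts with rps2, the first 2 genes rps2 and atpI rose by 1.09 each, and atpH, atpF and atpA were not called. Across psaC, ndhE, ndhG, ndhI, ndhA, ndhH and rps15, named here against the direction of reading, only ndhI rose. The other 6 had values from -0.72 to -0.01. The gene ndhD, next to psaC on the same strand, was not counted in this unit and had a value of 0.14. Along psbB, psbT, psbH, petB and petD all 5 values were above 0, from 0.30 to 0.81, and 0 were called. The unit from rpl23 to rpoA, 13 members with both copies of rpl23 and rpl2, had 3 higher, 9 above 0 and a median of 0.19. Differences between genes of 1 unit were not tested, and the units were looked at with these values known.

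**Figure D3:**
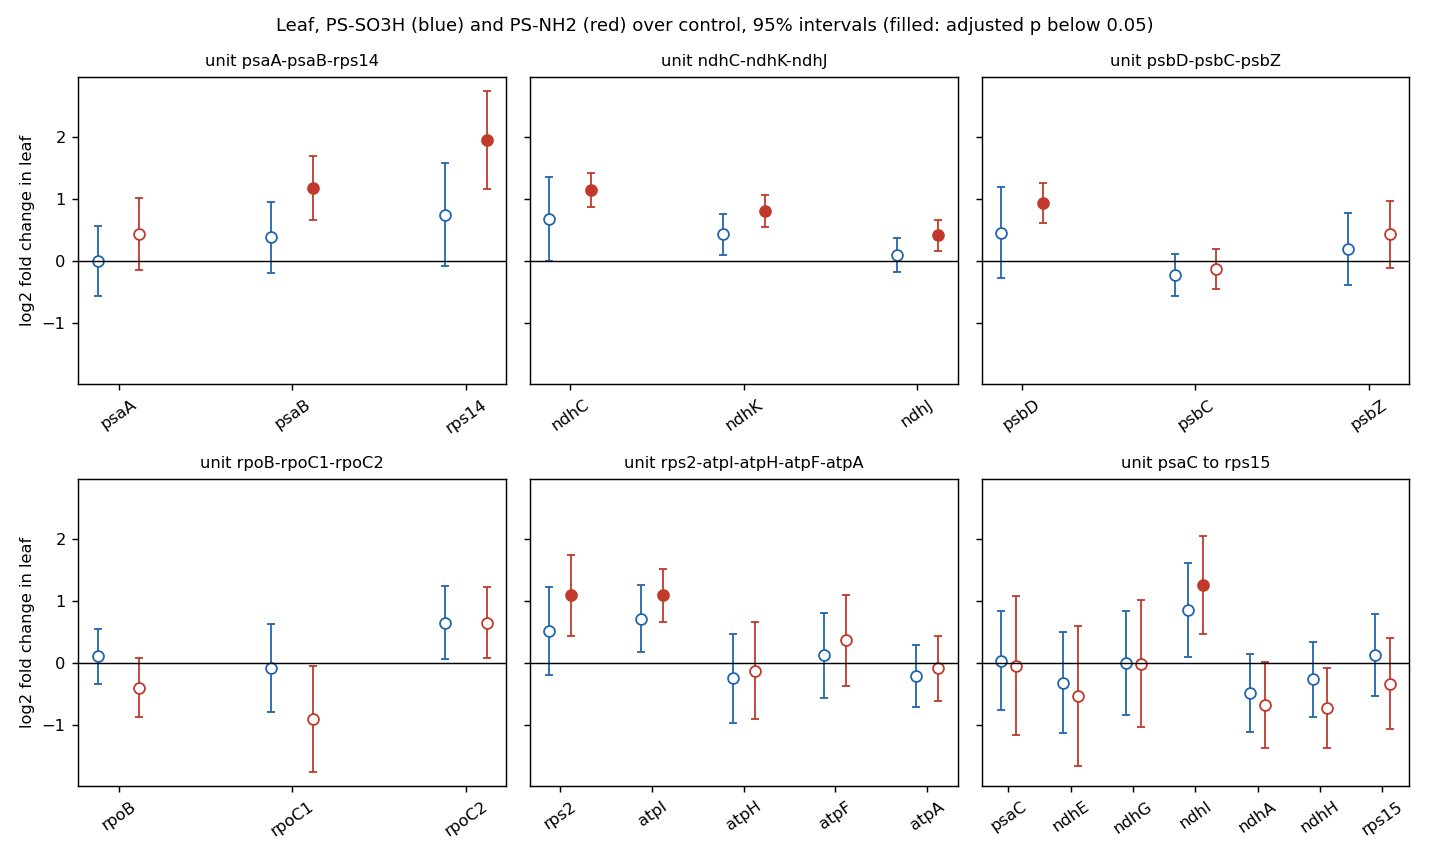
Log2 fold change in leaf with 95% intervals for the genes of 6 transcription units, with PS-SO3H in blue and PS-NH2 in red. Filled points have an adjusted p below 0.05. Genes stand in their order along the unit, except that psaC to rps15 is drawn against the direction of reading and without the adjoining ndhD. With PS-NH2 values rise along psaA, psaB and rps14 (0.45, 1.18 and 1.96), fall along ndhC, ndhK and ndhJ (1.14, 0.82 and 0.42), and ndhI stands apart in its unit at 1.25.

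With PS-SO3H, the sulfonated particles, 4 of 88 members rose in leaf and 0 fell in the authors' deposited table, against 1.83% of all genes called higher and 2.63% called lower. Those members were rpl32 (4020 to 6635, 0.72 ± 0.15, adjusted p = 0.000124), atpE (14944 to 24512, 0.71 ± 0.18, adjusted p = 0.00314), psbM (2408 to 3630, 0.59 ± 0.15, adjusted p = 0.0039) and psbI (230 to 421, 0.87 ± 0.23, adjusted p = 0.00421). All of them encode small proteins of the ribosome, ATP synthase or photosystem II. The median log2 fold change was 0.23, with 74 members above 0 and a median near 0 over all genes. At an unadjusted p below 0.05, 15 members were higher (17.0%) and 0 lower, beside 5.73% and 6.62% of all genes. Relative to the median member of level at least 10 (0.25), 2 were called higher and 1 lower. The shares of all genes were not counted, so these counts too are a description only. The SE was larger among plastid genes in this table, with a median of 0.205 at levels of at least 200 against 0.169 for all genes of that level. Values just outside the threshold were 0.57 ± 0.19 for rps19 (adjusted p = 0.0512) and 0.72 ± 0.25 for rps18 (adjusted p = 0.0852). Green markers had a median near 0, and 0 of 29 were called by the authors' DESeq2 test or had an unadjusted p below 0.05.

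The particles share their control libraries, so their values stand side by side and only the difference was tested. Over 88 members in leaf and 87 in root, 0 were called different between PS-NH2 and PS-SO3H in either tissue at a Benjamini-Hochberg adjusted p below 0.05. Among all genes, 0.583% were higher with PS-NH2 in leaf and 2.59% lower, and in root 0.974% and 2.26%. The median difference was 0.11 in leaf and near 0 in root. At an unadjusted p below 0.05 there were 3 members in each tissue, 3.41% of those in leaf and 3.45% of those in root, below the 8.95% and 9.51% of all genes. Given as a description, in leaf rps14 differed by 1.20 (interval 0.06 to 2.34, adjusted p = 0.481), psaB by 0.79 (0.02 to 1.56, adjusted p = 0.527) and atpE by 0.45 (0.00 to 0.89, adjusted p = 0.543). For atpB, with log2 fold changes of 0.69 with PS-NH2 and 0.35 with PS-SO3H, the difference was 0.35 with an interval from -0.05 to 0.74. These intervals do not show that the surfaces acted alike. Where the estimates were given a correlation of 0.5 for their shared controls, rps14 was called higher with PS-NH2 in leaf and ycf1 lower with PS-NH2 in root, 1 member each. By that rule 2.26% of all genes were higher and 6.05% lower in leaf, and 2.94% higher and 6.07% lower in root.

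In root, PS-SO3H gave 0 calls among 88 members by the authors' DESeq2 test, against 2.88% of all genes called higher and 1.95% lower. At an unadjusted p below 0.05, 1 member was higher (1.14%) and 0 were lower, beside 6.65% and 4.99% of all genes. The median was -0.04, and only 46 members had a mean level of at least 10. The gene with that unadjusted p was atpE, with 548 in control and 679 with PS-SO3H, a value of 0.31 ± 0.15 (adjusted p = 0.354). Green markers had a median of -0.21, with 26 of 29 below 0 and 1 called lower, and 4 of 8 root markers were called higher. Their part in the plastid values was not tested.

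With PS-NH2, 3 of 87 members rose in root and 1 fell in the authors' deposited table, against 1.62% of all genes called higher and 2.7% lower. The pair atpB (1851 to 2978) and atpE (567 to 929) rose by 0.69 ± 0.12 and 0.71 ± 0.15 (adjusted p = 1.5e-06 and 0.000148). The ribosomal gene rpl32 went from 247 to 382, a rise of 0.63 ± 0.18 (adjusted p = 0.0174). The import gene ycf1 fell from 1879 to 1340, by 0.49 ± 0.13 on the log2 scale (adjusted p = 0.00717). The members' median was 0.01, and 47 members had a mean level of at least 10. Not called were rpl2 (814 and 1053, 0.37 ± 0.14, adjusted p = 0.115), ndhF (44.8 and 75.5, 0.75 ± 0.31, adjusted p = 0.205) and ndhA (57.6 and 38.0, -0.60 ± 0.34, adjusted p = 0.584). Green markers had a median of -0.01, with 1 of 29 higher and 1 lower. All 8 root markers were below 0, with a median of -0.18, and 1 of them, EXPA18, was called lower. Their part in the plastid values was not tested.

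The leaf and root responses to PS-NH2 were then compared gene by gene, since their libraries are separate. Here 0 members had a higher fold change in root and 4 a lower one, against 4.59% and 1.99% of all genes. The members were rps14 (0.03 in root and 1.96 in leaf, a difference of -1.92 ± 0.53, adjusted p = 0.00771), atpI (-0.35 and 1.09, -1.44 ± 0.43, adjusted p = 0.0167), psbI (0.18 and 1.40, -1.22 ± 0.40, adjusted p = 0.0394) and psbK (-0.06 and 1.10, -1.16 ± 0.39, adjusted p = 0.0405). Root levels of psbI and psbK were below 10 in both groups, so their root fold changes rest on few reads and are shrunken towards 0. The difference for atpB was -0.01 with an interval from -0.36 to 0.35, and for atpE -0.45 with an interval from -0.84 to -0.05 (adjusted p = 0.229). The median difference over 87 members was -0.26, and 17 members (19.5%) had an unadjusted p below 0.05, beside 14.6% of all genes. For PS-SO3H, 0 members differed between tissues at the adjusted threshold in either direction, against 1.63% and 0.902% of all genes. The median difference was -0.28, and 4 members (4.55%) had an unadjusted p below 0.05, fewer than the 8.93% of all genes. The value of ndhI was -1.31 ± 0.54 (adjusted p = 0.277).

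**Figure D4:**
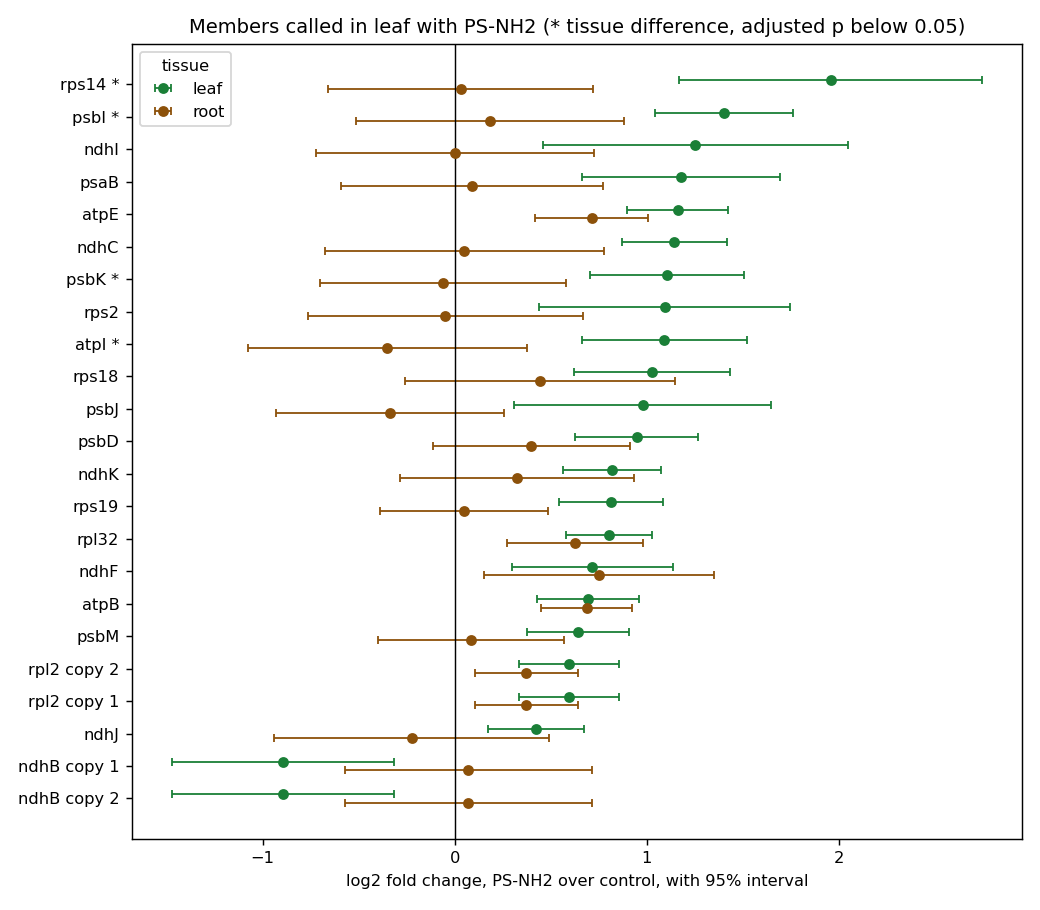
Log2 fold change with PS-NH2 in leaf (green) and root (brown), with 95% intervals, for the 23 members called in leaf, ordered by the leaf value. An asterisk marks the 4 members with a tissue difference at an adjusted p below 0.05, and atpB lies at 0.69 in both tissues.

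The plastid share of the summed level describes the same tables in another way, with no test. In leaf it was 0.539% and 0.536% in the fitted controls of the PS-SO3H and PS-NH2 tables, 0.709% with PS-SO3H and 0.864% with PS-NH2. Without atpB, the shares were 0.335% and 0.331% in control, 0.449% with PS-SO3H and 0.535% with PS-NH2. In root it was 0.0474% and 0.0475% in control, 0.0453% with PS-SO3H and 0.0538% with PS-NH2. Without atpB the root shares were 0.0394% and 0.0395% in control, 0.0362% with PS-SO3H and 0.0408% with PS-NH2, so most of the root gap with PS-NH2 lay in atpB. Genes of the mitochondrial genome, the other organelle chromosome, held 0.0110% in both leaf controls, 0.0117% with PS-SO3H and 0.0129% with PS-NH2. In root they held 0.0234% in both controls, 0.0333% with PS-SO3H and 0.0313% with PS-NH2. With PS-NH2 their median log2 fold change was -0.09 in leaf and 0.09 in root. There, 2 of 108 (1.85%) and 2 of 109 (1.83%) were called higher, beside 3.79% and 1.62% of all genes. Called lower were 0, beside 7.4% and 2.7% of all genes. With PS-SO3H the medians were -0.04 in leaf and 0.10 in root. Called higher were 1 of 107 and 1 of 112, beside 1.83% and 2.88% of all genes, and 0 were lower, beside 2.63% and 1.95%.

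**Figure D5:**
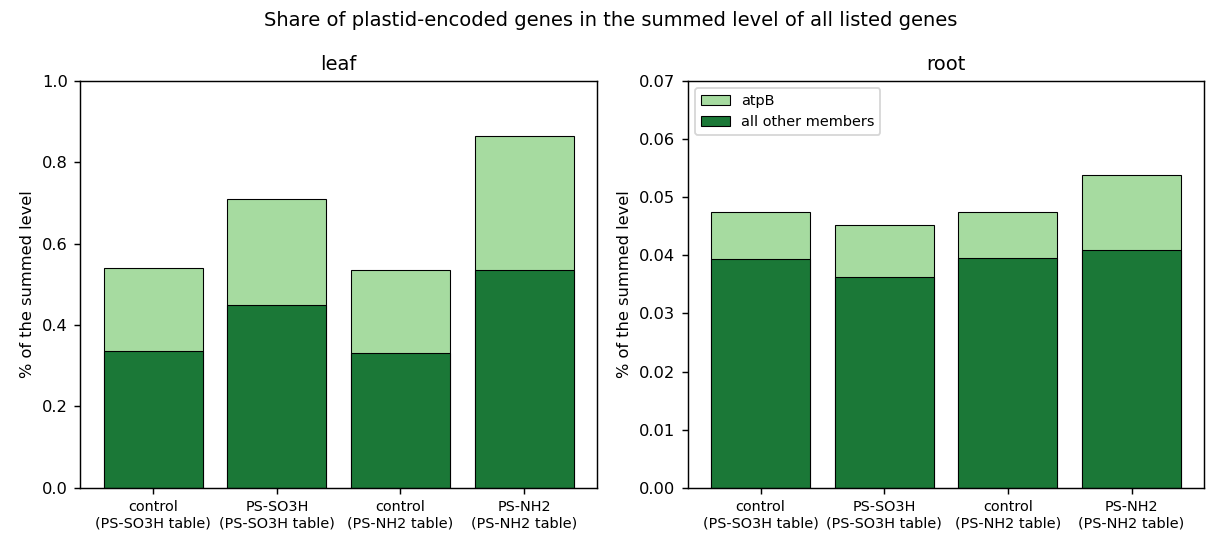
Share of plastid-encoded genes in the summed level of all listed genes, in %, for leaf and root with separate vertical scales that start at 0, split into atpB and all other members. Each control appears once per table, and the leaf share is 0.536% to 0.539% in control, 0.709% with PS-SO3H and 0.864% with PS-NH2.

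Nuclear genes that serve the plastid chromosome were described as 3 lists. Of 8 sigma factor and phage-type polymerase genes in leaf with PS-NH2, SIG4 rose and SIG1 and SIG5 fell in the authors' deposited table, beside 3.79% of all genes higher and 7.4% lower. SIG5, a sigma factor known for its response to blue light and stress and for reading the light-responsive promoter of psbD, had 753 in control and 280 with PS-NH2. It fell by 1.43 ± 0.19 on the log2 scale (adjusted p = 1.33e-12), in the same tissue in which psbD rose. SIG1 fell by 0.49 ± 0.14 (adjusted p = 0.00746), and SIG4 rose by 0.46 ± 0.14 (adjusted p = 0.017). In root with PS-NH2, SIG5 fell from 452 to 283, by 0.67 ± 0.19 (adjusted p = 0.0155), and with PS-SO3H it had values of -0.45 ± 0.18 in leaf (adjusted p = 0.181) and -0.46 ± 0.16 in root (adjusted p = 0.0736). RPOTp, the phage-type polymerase of plastids, had -0.28 ± 0.15 in leaf with PS-NH2 (adjusted p = 0.302). The 12 genes for proteins attached to the plastid polymerase gave 0 calls in all 4 comparisons by the authors' DESeq2 test. At an unadjusted p below 0.05, 4 were lower (33.3%) in leaf with PS-SO3H, beside 6.62% of all genes. In leaf with PS-NH2, 1 was higher (8.33%), beside 7.77% of all genes. In root 0 reached that threshold, beside 6.65% of all genes higher and 4.99% lower with PS-SO3H, and 4.37% and 6.48% with PS-NH2. Their medians were -0.21 and 0.06 in leaf and -0.11 and -0.08 in root, for PS-SO3H and PS-NH2 in turn. GLK1 and GLK2, regulators of chloroplast development, rose in leaf with PS-SO3H by 0.53 ± 0.16 and 0.66 ± 0.14 (adjusted p = 0.0274 and 8.12e-05), beside 1.83% of all genes called higher there, and had 0.30 ± 0.16 and 0.27 ± 0.15 with PS-NH2.

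The nuclear-encoded partners of the plastid subunits were considered as 34 genes of Rubisco, both photosystems, cytochrome b6f, ATP synthase and NDH. In leaf with PS-NH2, 3 rose (8.82%) and 4 fell (11.8%), beside 3.79% and 7.4% of all genes, and their median was 0.08. Those that fell belong to the photosystems, namely PSAD-2 (21415 to 11566, -0.89 ± 0.11, adjusted p = 3.39e-15), PSBY (-0.39 ± 0.12), PSAF (-0.34 ± 0.10) and PSAH2 (-0.34 ± 0.12). Those that rose were NdhN (0.47 ± 0.13) and NdhL (0.41 ± 0.12) of the NDH complex and the cytochrome b6f gene AT2G26500 (0.34 ± 0.11). With PS-SO3H, 0 of 34 were called in leaf at the adjusted threshold or had an unadjusted p below 0.05, with a median near 0. In root the small Rubisco subunit gene RBCS2B fell with both particles. Its levels were 81.5 in control and 24.5 with PS-SO3H (-1.74 ± 0.34, adjusted p = 2.09e-05), and 83.0 in control and 24.3 with PS-NH2 (-1.77 ± 0.33, adjusted p = 1.04e-05). RBCS1A, another gene of that subunit, rose in root with PS-NH2 by 0.39 ± 0.11 (adjusted p = 0.0149). Members of the RBCS family are near-identical, so reads could be split between them.

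Gene structure was described over the 78 distinct members matched to RefSeq TAIR10.1, with the leaf PS-NH2 values already known and no test. Of 11 genes split by introns, 1 rose (rpl2), 1 fell (ndhB) and the median log2 fold change was 0.25. Of 67 genes without an intron, 19 rose, 0 fell and the median was 0.45. In the windows around the start codon, on either strand, TTGACA was present in 4 of the 20 distinct genes that rose and 8 of the 57 not called. The other promoter box, TATAAT, occurred in the windows of 6 of the 20 that rose, 29 of the 57 not called and 35 of all 78 (44.9%). Neither count says where a transcript starts. The GC content of the gene from start to stop codon, introns included, had a median of 38.0% in genes that rose and 35.8% in those not called. The longest run of A bases in the gene and the 200 bases after it had a median of 8.5 (5 to 13) in genes that rose and 7 (3 to 14) in those not called. All 5 repeat pairs compared in the reference had identical sequence in both copies, and their values in the tables were equal.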

How the data were processed

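Reads of 12 libraries were processed by the authors before deposit, with build TAIR10 per the submitters' processing notes. The series text describes a small RNA library aligned with SOAP2, and it is unclear whether either applies. The counting program is not given in the sources used here. The authors made each of 4 tables with a DESeq2 method, per the file labels. Each group's deposited level is a signal (reads scaled by size factors, not by gene length), fitted with the fold change. The authors' log2 fold change is shrunken for low genes. P-values and adjusted p are the authors'. The deposited gene length, a column of another kind, gave levels per kb. No value per library was used, so depth per library is unknown, and a planned count-based test was replaced by the authors' own.

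The SE was recovered as the log2 fold change divided by the normal quantile of the p-value, which also gave 95% intervals. For differences between particles or tissues, log2 fold changes were subtracted for every gene of the table and squared SEs added, with a two-sided normal p and Benjamini-Hochberg adjustment. Shared controls make the SE of a particle difference too large. The calculation was tested on simulated data. The members and gene lists were chosen with earlier results of these data known. Given singly are called members, the largest changes first, a panel of well-known plastid genes, and up to 5 called genes of each nuclear list. Others were chosen after their values were seen. The result of 1 member is not reported here. Alternatives were other thresholds, centring, a level minimum of 10, a pseudocount of 1 and 1 copy of repeat pairs. Plastid sequences come from RefSeq TAIR10.1 with its own coordinates, and 83 of 88 members were matched there. Work used Python 3.11.15, NumPy 2.4.6, pandas 2.3.3, SciPy 1.17.1 and Matplotlib 3.10.9.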

Additional observations from a re-analysis of the deposited data

Results flagged for a closer look

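For 4 members the response to PS-NH2 differed between root and leaf in a test of the difference itself. The log2 fold change in root minus that in leaf was -1.92 for rps14, -1.44 for atpI, -1.22 for psbI and -1.16 for psbK. In leaf all 4 rose with PS-NH2, and in root 0 of them were called at the adjusted threshold. Root levels were 30.6 and 31.3 for rps14 and 17.6 and 13.8 for atpI, in control and with PS-NH2, and below 10 for psbI and psbK.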

How the results depend on the processing

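No paired analysis was possible because the tables used here give 1 fitted level per group and no value per library, and for the same reason no library could be left out in turn. In leaf with PS-NH2, a stricter rule (adjusted p at most 0.001 and log2 at least 1) left 8 members higher and 0 lower, beside 0.426% and 2.71% of all genes. The authors' own up and down marks left 10 and 0, and the share of all genes so marked was not counted. With 1 copy of each repeat pair, 1 was lower. Under the stricter rule and the marks alike, 0 members were called in leaf with PS-SO3H and 0 in root with PS-NH2. Centring every gene on the median plastid member of level at least 10 was chosen after seeing the data. It gave 12 members higher and 9 lower in leaf with PS-NH2, and 2 higher and 1 lower in leaf with PS-SO3H. The shares of all genes under this centring were not counted, and it lowered the value of every gene in leaf, so these counts are a description only. The plastid share, treated minus control in percentage points, was without atpB 0.114 and 0.203 in leaf and -0.00318 and 0.00131 in root (PS-SO3H and PS-NH2). With a correlation of 0.5 for shared controls, rps14 was called higher with PS-NH2 than with PS-SO3H in leaf (1 member, adjusted p = 0.044, against 2.26% of all genes) and ycf1 lower in root (1 member, adjusted p = 0.00911, against 6.07%). Centred on the median gene, the median root over leaf ratio was -3.60. The other 89 values for comparisons stayed within 1.5 times the count or, for medians, within the members' median SE. Of these, 17 were unchanged by construction, since all members count as protein-coding by gene name. Where 0 members were called, the stricter rule and 1 copy of each pair could only give 0. Centring on the median gene moved fold changes little, since that gene lay at -0.00313 to 0.00256. With a level of at least 10 in both tissues, the root minus leaf test for PS-NH2 called 3 members lower. It left out psbI and psbK, so its calls were not the same members, and they are not named here. For single members 63 values kept their call and rps19 in leaf with PS-SO3H was called higher (0.57) among genes with a level of at least 10. In root 46 or 47 members reached a mean level of 10, against 79 in leaf.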
